A study of Mus musculus with 18 samples.

Results

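The transcripts described here encode enzymes of cholesterol synthesis and a protein that restrains the pathway. They were chosen by name, as the genes Hmgcs1, Sqle, Fdft1, Fdps, Idi1, Lss, Cyp51 and Insig1, and 7 of these 8 are described, of 20207 genes listed for each library. Hmgcs1 is not analysed here. All 7 passed the filter on low counts. mRNA-seq of poly(A) RNA was analysed in 18 libraries of NIH3T3 cells, an established mouse fibroblast line, in 6 groups of 3. Every group carried a stably integrated DD-GFP, a mutant FKBP destabilizing domain (L106P) fused to superfolder GFP, in a population sorted for high GFP, and S1, the ligand that keeps the domain folded, stayed in the medium throughout. Control cells were held at 37°C without tunicamycin and are labelled 0 min. No untreated group had a later time, so treatment and further time in culture cannot be told apart here. Heat-shocked (HS) cells were kept at 42°C for 45 or 135 min. Tunicamycin-treated (Tu) cells received 5 µM tunicamycin, which blocks N-glycosylation in the endoplasmic reticulum (ER), and were harvested after 45, 135 or 405 min. No source used here says whether the 3 libraries of a group came from separate cultures or days, so the p-values measure the spread between these libraries.

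Cells build cholesterol from acetyl-CoA through mevalonate, isoprenoid pyrophosphates and squalene. The genes of the route are known targets of the SREBP transcription factors, which are made as ER membrane proteins and are carried to the Golgi by Scap for cleavage when ER cholesterol is low. Insig1 holds Scap in the ER when sterols are plentiful and is itself an SREBP target. Among the members, Idi1 interconverts the isopentenyl and dimethylallyl pyrophosphates, Fdps condenses them to farnesyl pyrophosphate, and Fdft1 joins farnesyl units into squalene. Sqle then oxidizes squalene, Lss closes it to lanosterol, and Cyp51 removes the 14-alpha methyl group of lanosterol.

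At 405 min of tunicamycin the route was lower at the level of its transcripts. Of the 7 members, 6 fell against control (Idi1, Insig1, Lss, Cyp51, Sqle and Fdft1) and none rose, where 23.5% of all 12731 genes tested were called lower and 46.8% were called in either direction. Fdft1 fell by 28.3% and Idi1 fell by 86.8%, the ends of the range. Fdps was the exception, at a log2 fold change of 0.22 ± 0.188 (SE) that did not pass the test (adjusted p = 0.357, edgeR). In bulk libraries such as these, less of a transcript per cell and fewer cells that carry it cannot be told apart. The members' median log2 fold change was -1.27, beside -0.012 over all genes tested. At 45 min of tunicamycin the fall of Insig1 alone passed the test, and at 135 min of tunicamycin and at both times of HS no member passed it.

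The 18 libraries held between 33415592 and 66478268 reads on genes, and 3 reads corresponded to 0.0397 to 0.0821 CPM (reads scaled to a common library size), so the members, with 438 to 30690 reads each in a library, lay far above the counting floor. CPM values below are scaled by TMM over all 18 libraries, while each fold change comes from a fit of the 6 libraries compared. The 6 fibroblast markers (Col1a1, Col1a2, Col3a1, Thy1, Pdgfrb and Vim) summed to between 11200 and 58800 CPM in every library, and the adipocyte markers (1 of 3 past the filter) summed to at most 3.73 CPM, the epithelial markers (1 of 4) to at most 1.11 CPM and the leukocyte markers (1 of 3) to at most 8.75 CPM. The largest axis of spread within groups carried 68.1% of that spread over all genes tested, and several libraries stood apart on it, as given with HS below. For the heat-shock chaperone gene Hspa1b, the libraries of HS at 135 min had 263, 1140 and 1210 CPM, above the 5.47 to 6.3 CPM of the controls (adjusted p = 0.0058, edgeR), and those at 45 min had 280, 223 and 46.0 CPM without passing the test (adjusted p = 0.192, edgeR). The ER chaperone gene Hspa5 had 8800 to 9290 CPM at 405 min of tunicamycin against 656 to 735 CPM in control (adjusted p = 4.64e-06, edgeR). In the libraries labelled Tu 135 min Hspa5 lay below every control, at 333 to 491 CPM (adjusted p = 0.135, edgeR). Ddit3, a transcription factor gene of the ER stress response, lay above every control there, at 161 to 287 CPM against 69.4 to 74.0 CPM (log2 fold change 1.54, adjusted p = 0.0706, edgeR), and was called higher at 45 min (2.92, adjusted p = 0.000836, edgeR) and 405 min (5.22, adjusted p = 2.45e-06, edgeR). Under HS at 135 min Hspa5 and Ddit3 were also called higher. Hspa5 had 1270 to 1420 CPM (log2 fold change 0.96, adjusted p = 0.0312, edgeR). Ddit3 had 257 to 513 CPM (2.32, adjusted p = 0.0122, edgeR). These calls held in 2 and 3 of 6 fits that each left out 1 library. The gene model of Ddit3 overlaps that of Mars by position.

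In control cells, the members differed in abundance when corrected for gene length. On the authors' RPKM scale, Fdps had the highest level of the 7, at 252 ± 70.2 (SD, n = 3), above every value of the other members. Fdft1 followed at 71.4 ± 9.57, Sqle at 66.3 ± 14.0 and Insig1 at 64.0 ± 1.93, and these overlapped from each to the next (SD, n = 3 each). Insig1 lay above all values of Cyp51, and Cyp51 (56.1 ± 3.02), Lss (53.6 ± 0.95) and Idi1 (46.4 ± 15.7) overlapped with their neighbours in that order (RPKM, SD, n = 3 each). In CPM, control replicate 1 was the lowest of the 3 for Fdps, Idi1, Sqle, Fdft1 and Cyp51, and the highest for Lss and Insig1.

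Upstream sequence is printed for Idi1, Lss, Cyp51 and Insig1, the members with an entry in the reference table used here, to show the letters before the start of genes whose transcripts are compared below. The 250 bases before each gene's start (RefSeq, build GRCm38.p6) are chr13:8885356-8885605 on the plus strand for Idi1, chr10:76531355-76531604 on the plus strand for Lss, chr5:4104698-4104947 on the minus strand for Cyp51 and chr5:28071162-28071411 on the plus strand for Insig1, each read 5′ to 3′ in the direction of the gene. Capitals mark matches to CCAAT, the core bound by NF-Y (ATTGG when it lies on the other strand), or to CACGTG, an E-box that SREBPs can bind.
Idi1: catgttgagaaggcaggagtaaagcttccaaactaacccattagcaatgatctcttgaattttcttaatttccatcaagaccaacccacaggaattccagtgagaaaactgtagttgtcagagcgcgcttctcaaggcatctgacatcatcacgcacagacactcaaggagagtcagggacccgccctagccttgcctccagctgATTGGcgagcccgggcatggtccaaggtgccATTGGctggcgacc
Lss: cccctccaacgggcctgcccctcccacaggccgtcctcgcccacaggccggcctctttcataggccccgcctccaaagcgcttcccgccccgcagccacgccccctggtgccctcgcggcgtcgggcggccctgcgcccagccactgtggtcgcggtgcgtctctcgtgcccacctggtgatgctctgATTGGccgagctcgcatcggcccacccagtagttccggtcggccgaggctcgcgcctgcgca
Cyp51: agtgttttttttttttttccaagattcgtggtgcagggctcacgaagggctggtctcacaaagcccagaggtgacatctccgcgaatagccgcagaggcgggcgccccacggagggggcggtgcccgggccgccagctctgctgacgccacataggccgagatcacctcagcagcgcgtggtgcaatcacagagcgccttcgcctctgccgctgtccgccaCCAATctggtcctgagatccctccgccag
Insig1: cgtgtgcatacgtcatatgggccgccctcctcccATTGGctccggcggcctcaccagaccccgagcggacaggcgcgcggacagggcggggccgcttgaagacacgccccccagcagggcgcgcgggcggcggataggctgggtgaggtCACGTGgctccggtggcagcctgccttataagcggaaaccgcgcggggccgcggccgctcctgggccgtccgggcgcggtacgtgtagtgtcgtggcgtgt
All 4 sequences held CCAAT on 1 or the other strand, against 33.8% of the 32851 upstream sequences of this length in the table. Idi1 held it at a pair of places, with the match nearer to the start ending 10 bases before it, and Insig1 also held CACGTG from 101 to 96 bases before the start, against 6.02% of all upstream sequences. Counting the other enzymes of the pathway as well, 15 of 19 upstream sequences of 16 genes held CCAAT and 4 held CACGTG. TCACNCCAC, the core of the sterol regulatory element, searched like the others on both strands, was in none of the 19 and in 1.05% of all. These are matches of letters, and binding was not measured.

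The enzymes before squalene differed widely at 405 min of tunicamycin. Idi1 (chromosome 13, 8885220 to 8891614, with this and the positions that follow in mm9, and placed slightly differently in part of the files) had 85.0, 157 and 156 CPM in the control libraries and 19.3, 14.6 and 17.8 CPM at 405 min. The groups lay far apart, with the highest treated library well under the lowest control, and Idi1 fell by 86.8% (log2 fold change -2.92 ± 0.252 SE, adjusted p = 8.46e-05, edgeR). Fdps (chromosome 3, 88897510 to 88905867) had 255, 416 and 405 CPM in control and 397, 419 and 419 CPM at 405 min. Its treated libraries sat with the upper controls, so the most abundant member kept a level that the test could not tell from control. Fdft1 (chromosome 14, 63763988 to 63796630) had 215, 267 and 235 CPM in control and 186, 152 and 169 CPM at 405 min. All 3 treated libraries were lower than all controls, but by the smallest margin of the 6 that fell (log2 fold change -0.48 ± 0.134 SE, adjusted p = 0.0188, edgeR). Fdft1 did not pass in 3 of the 6 fits that left out 1 library (replicate 2 or 3 at 405 min, or control replicate 2), with values of -0.57 to -0.41 over the 6, and its gene model overlaps that of Ctsb by position, so some reads could belong to either.

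From squalene on, all 3 member enzymes fell. Sqle (chromosome 15, 59146647 to 59162748) had 168, 234 and 235 CPM in control and 105, 95.5 and 91.8 CPM at 405 min, and fell by 53.3% (log2 fold change -1.10 ± 0.155 SE, adjusted p = 0.000841, edgeR). Lss (chromosome 10, 75994372 to 76016679) had 203, 189 and 193 CPM in control and 65.5, 57.6 and 55.3 CPM at 405 min, with a log2 fold change of -1.69 ± 0.12 (SE, adjusted p = 3.71e-05, edgeR). Cyp51 (chromosome 5, 4080674 to 4104697) had 279, 292 and 285 CPM in control and 130, 109 and 112 CPM at 405 min, with a log2 fold change of -1.27 ± 0.12 (SE, adjusted p = 0.000134, edgeR). For each of these enzymes the treated libraries lay under every control, and the calls held in all 6 fits that left out 1 library.

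Insig1, the regulator among the members, fell next to Idi1 in size. Insig1 (chromosome 5, 28397952 to 28405202) had 203, 192 and 200 CPM in control and 46.2, 38.5 and 36.5 CPM at 405 min. Every treated library lay far under every control, and Insig1 fell by 79.3%, with a log2 fold change of -2.27 ± 0.132 (SE, adjusted p = 1.7e-05, edgeR). In all, 6 of the 7 members had every treated library under every control, where 29.5% of the genes tested did.

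**Figure D1:**
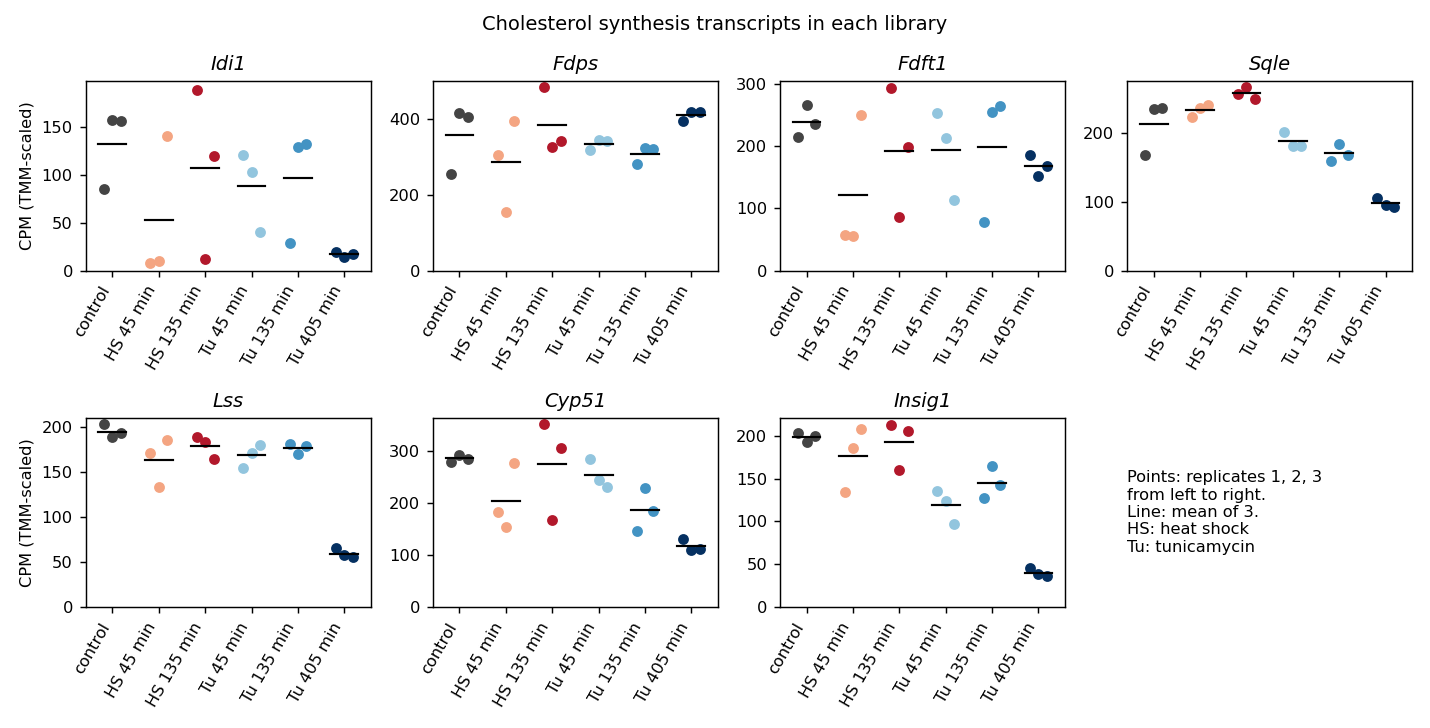
Level of each member in each of the 18 libraries (CPM, TMM-scaled, linear axes from 0), with points for replicates 1 to 3 from left to right in each group and a line at their mean. At 405 min of tunicamycin the 3 points of Idi1 (14.6 to 19.3 CPM) and Insig1 (36.5 to 46.2 CPM) sit close together and under every control, those of Fdps (397 to 419 CPM) sit at the upper controls, and the HS groups of Idi1 and Fdft1 are split.

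Most of the other enzymes of the route also fell. Of 13 further enzymes, 10 fell at 405 min of tunicamycin and 2 rose, where 23.5% of all genes tested were called lower. Their median log2 fold change was -1.42. The largest falls were those of Acat2, which joins acetyl-CoA units at the head of the route, and of Nsdhl and Hsd17b7, which act in the removal of the C4 methyl groups of the sterol. Acat2 went from 126 to 150 CPM in control to 13.8 to 22.1 CPM (log2 fold change -2.99 ± 0.199 SE, adjusted p = 2.95e-05, edgeR). Nsdhl went from 84.6 to 121 CPM to 15.3 to 21.6 CPM, and Hsd17b7 from 36.3 to 46.7 CPM to 5.87 to 8.14 CPM, both with a log2 fold change of -2.56 (adjusted p = 4.77e-05 and 3.17e-05, edgeR). The groups did not overlap for any of these enzymes, where 29.5% of the genes tested were apart in that direction.

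The enzymes that rose were Mvd, which makes isopentenyl pyrophosphate, and Ebp, a sterol isomerase, and both are named after their values were seen. Mvd had 119, 92 and 98.4 CPM in control and 128, 141 and 134 CPM at 405 min (log2 fold change 0.40 ± 0.136 SE, adjusted p = 0.0386, edgeR), a call that was lost when any 1 library other than control replicate 1 was left out. Ebp had 53.8, 66.8 and 63.6 CPM in control and 80.6, 85.8 and 93.6 CPM at 405 min (log2 fold change 0.52 ± 0.13 SE, adjusted p = 0.0118, edgeR), and its call was lost only without replicate 3 at 405 min among the fits that left out 1 library. In pathway order, members and other enzymes together, 5 of 7 enzymes up to squalene fell and 1 rose, and 10 of 12 from squalene on fell and 1 rose. Over all genes tested, 23.5% were called lower. The median log2 fold change was -0.65 for the enzymes up to squalene and -1.56 for those from squalene on. Whether these medians differ was not tested.

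**Figure D2:**
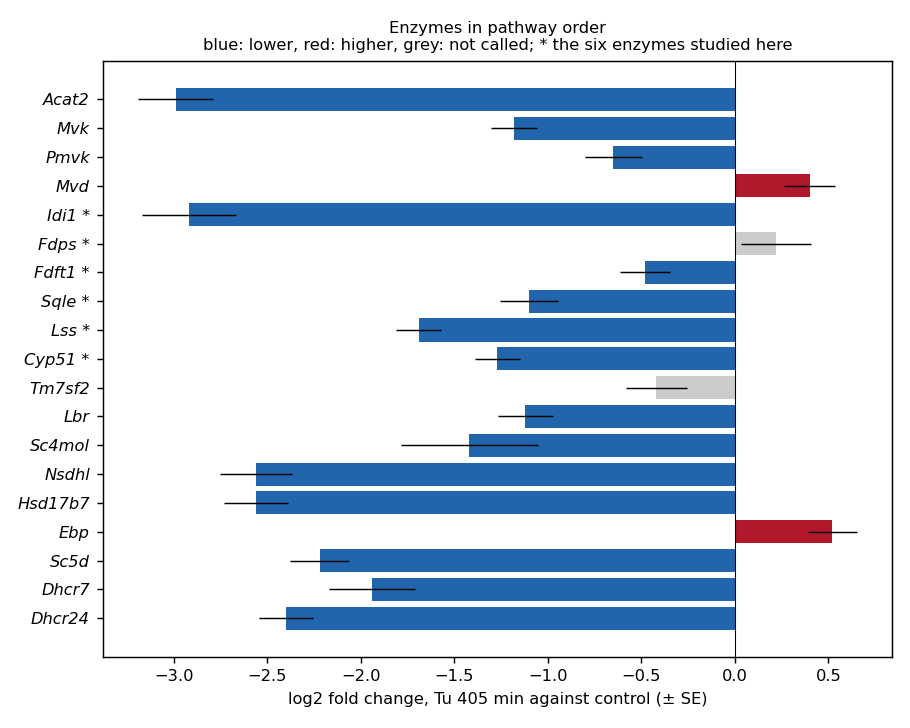
Log2 fold change of 19 enzymes at 405 min of tunicamycin against control (edgeR, error bars are SE, n = 3 against 3), in pathway order from top to bottom, with stars on the 6 member enzymes. Blue bars fell, red bars rose and grey bars were not called, so that 15 bars point left in blue, from Fdft1 at -0.48 to Acat2 at -2.99, while Mvd and Ebp point right.

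Among the SREBP genes themselves the differences at 405 min of tunicamycin were small. Srebf2, the SREBP best known for the cholesterol genes, had 745, 472 and 477 CPM in control and 374, 400 and 369 CPM at 405 min. It fell with a log2 fold change of -0.55 ± 0.196 (SE, adjusted p = 0.0494, edgeR), a call that was lost without any 1 of the 3 libraries at 405 min. Srebf1, better known for fatty acid genes and overlapped by the gene model of Rai1, had 107, 77.3 and 79.2 CPM in control and 118, 122 and 120 CPM at 405 min, and rose with a log2 fold change of 0.48 ± 0.151 (SE, adjusted p = 0.0317, edgeR), a call that was lost when any 1 library other than control replicate 1 was left out. Scap had 207, 138 and 127 CPM in control and 142, 127 and 122 CPM at 405 min (log2 fold change -0.25 ± 0.194 SE, adjusted p = 0.316, edgeR). Insig2, the relative of Insig1, had 19.0, 16.8 and 19.4 CPM in control and 18.6, 6.72 and 12.8 CPM at 405 min (log2 fold change -0.51 ± 0.315 SE, adjusted p = 0.213, edgeR). Of the 6 genes of the list, Mbtps1, a protease that cuts SREBPs in the Golgi, also fell (log2 fold change -0.47 ± 0.13 SE, adjusted p = 0.0187, edgeR), so 2 fell and 1 rose, a share near the 46.8% called over all genes.

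Fatty acid synthesis, the other SREBP route, fell in the same libraries. Of its 10 genes, 9 fell and none rose, where 23.5% of all genes tested were called lower. Their median log2 fold change was -1.29. The elongase gene Elovl6 had 87.9 to 129 CPM in control and 18.8 to 20.1 CPM at 405 min (log2 fold change -2.53 ± 0.165 SE), Acaca, which makes malonyl-CoA, 286 to 353 and 73.4 to 87.1 CPM (-1.91 ± 0.143 SE), and Fasn, the fatty acid synthase, 1430 to 2390 and 484 to 549 CPM (-1.76 ± 0.215 SE). None of these ranges overlapped, where 29.5% of the genes tested were apart in that direction. The adjusted p-values were 2.68e-05, 4.73e-05 and 0.000425 (edgeR).

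In the branches off the route, calls at 405 min ran in both directions, as they did over all genes, of which 46.8% were called. Of 10 genes of the isoprenoid branch, 3 rose and 2 fell, a share near that over all genes, with a median log2 fold change of 0.03. The largest calls were Fntb, a farnesyltransferase subunit (0.70 ± 0.124 SE, adjusted p = 0.00252, edgeR), Nus1, a subunit of the enzyme that makes dolichol chains (0.61 ± 0.151 SE, adjusted p = 0.0118, edgeR) and Dolk, the dolichol kinase (-0.49 ± 0.116 SE, adjusted p = 0.00891, edgeR). Of 8 genes of cholesterol transport and storage, 3 rose and 2 fell. Osbp, which exchanges sterol for a phosphoinositide at ER and Golgi contacts, rose from 94.0 to 102 CPM to 241 to 329 CPM (log2 fold change 1.5 ± 0.148 SE), while the sterol carrier gene Stard4 fell from 52.0 to 52.6 CPM to 16.7 to 20.1 CPM (-1.47 ± 0.123 SE) and Scarb1, a receptor for high-density lipoprotein, fell from 187 to 207 CPM to 108 to 110 CPM (-0.82 ± 0.109 SE), with adjusted p-values of 0.000161, 7.43e-05 and 0.000659 (edgeR).

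Of the 5 genes of oxysterol receptors and their targets, 4 were tested, 1 rose and 2 fell, where 46.8% of all genes tested were called in either direction. Abca1, a cholesterol exporter, went from 6.11 to 9.06 CPM in control to 1.48 to 1.84 CPM at 405 min (log2 fold change -2.25 ± 0.212 SE, adjusted p = 0.000127, edgeR). Mylip, a ubiquitin ligase and target of these receptors, also fell (-1.03 ± 0.259 SE, adjusted p = 0.0122, edgeR), and the receptor gene Nr1h2 rose (0.81 ± 0.149 SE, adjusted p = 0.00295, edgeR). In the same libraries 5 of 6 fibroblast markers fell, where 23.5% of all genes tested were called lower. The sum of the 6 markers was 11200 to 13000 CPM against 19900 to 26500 CPM in control. The part of this shift in the members' falls was not tested.

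**Figure D3:**
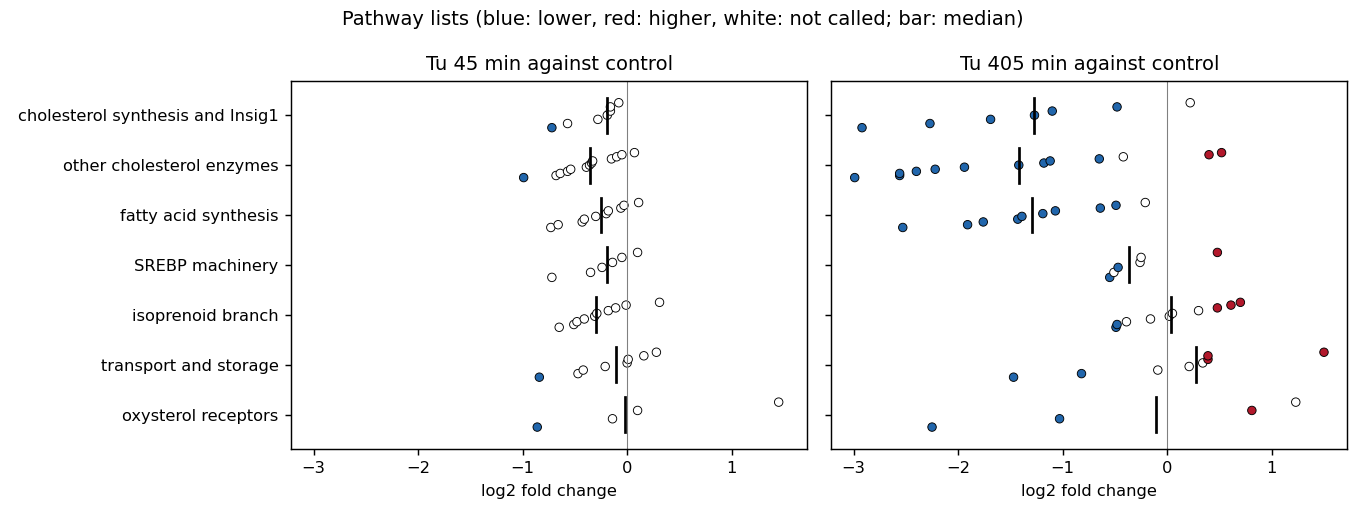
Log2 fold change of each gene of 7 lists (1 point a gene, edgeR, n = 3 against 3) at 45 min (left) and 405 min (right) of tunicamycin against control, with blue for genes that fell, red for genes that rose, white for genes not called and a bar at each list's median. At 405 min the medians of the members (-1.27), the other cholesterol enzymes (-1.42) and fatty acid synthesis (-1.29) lie to the left, and those of the isoprenoid branch (0.03) and transport and storage (0.27) near or right of 0.

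The earlier times of tunicamycin asked how soon this pattern appeared. At 45 min 1 of 7 members was called, Insig1, where 2.17% of all genes tested were called lower and 6.17% in either direction. Insig1 had 135, 124 and 97.6 CPM against 203, 192 and 200 CPM in control, all treated libraries under all controls (log2 fold change -0.72 ± 0.156 SE, adjusted p = 0.0409, edgeR). Leaving out 1 library ended this call in 5 of 6 fits, all but the fit without control replicate 1, with values from -0.82 to -0.58. Lss also lay under every control at 45 min, at 155, 171 and 180 CPM, without passing the test (log2 fold change -0.19 ± 0.115 SE, adjusted p = 0.337, edgeR), and 16% of the genes tested had groups apart in that direction. All 7 members had log2 fold changes below 0, from -0.72 to -0.08, with a median of -0.19 beside -0.004 over all genes.

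Of the 51 other pathway genes tested, 3 were called at 45 min of tunicamycin, all lower, a share of 5.88%. Over all genes tested, 2.17% were called lower and 6.17% in either direction. Acat2 had 58.3 to 74.4 CPM (log2 fold change -0.99 ± 0.149 SE, adjusted p = 0.0129, edgeR), Tmem97, a sterol-responsive ER membrane protein, had 76.8 to 94.3 CPM against 134 to 170 CPM in control (-0.84 ± 0.149 SE, adjusted p = 0.0225, edgeR) and Abca1 had 4.16 to 4.55 CPM (-0.86 ± 0.198 SE, adjusted p = 0.0467, edgeR). The calls held in 3, 2 and 1 of the 6 fits that left out 1 library, and over these fits the count of other pathway genes called ran from 0 (without replicate 2 at 45 min or control replicate 2 or 3) to 11 (without control replicate 1), with 1 called without replicate 3 at 45 min. Tmem97 had 135 to 145 CPM at 405 min (log2 fold change -0.09 ± 0.126 SE, adjusted p = 0.596, edgeR), within the range of the controls. Srebf1, Srebf2, Scap and Insig2 had log2 fold changes of 0.10, -0.05, -0.14 and -0.72 at 45 min, with adjusted p-values of 0.758, 0.909, 0.718 and 0.233 (edgeR).

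At 135 min of tunicamycin no member was called, where 0.134% of the genes tested were (17 genes by edgeR, 665 by DESeq2, which also called no member). At an unadjusted p under 0.05, 2 members and 18.6% of the genes tested passed. Cyp51 had 146, 229 and 185 CPM (log2 fold change -0.59 ± 0.205 SE, adjusted p = 0.196, edgeR) and Insig1 had 127, 165 and 143 CPM (-0.43 ± 0.17 SE, adjusted p = 0.233, edgeR). Both lay under all controls in all 3 libraries, as did Lss at 181, 170 and 179 CPM, and 13.6% of the genes tested were apart in that direction. With the replicate number as a block, no member was called either and the 17 genes called became 0.

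Replicate 1 at 135 min of tunicamycin stood apart from its group. It had 28.4 CPM of Idi1 against 129 and 132 CPM in the others, and 78.5 CPM of Fdft1 against 255 and 265 CPM. Idi1 then had a log2 fold change of -0.43 ± 0.523 (SE), and without that library 0.01. Fdft1 had -0.23 ± 0.409 (SE), and without that library 0.16. Sqle, at 159, 184 and 168 CPM (-0.30 ± 0.189 SE), and Fdps, at 281, 325 and 321 CPM (-0.20 ± 0.222 SE), overlapped with the controls. Of the other pathway genes none was called (6 by DESeq2, all lower), and Srebf1, Srebf2, Scap and Insig2 had log2 fold changes of 0.12, 0.29, 0.01 and -0.97 (adjusted p = 0.84, 0.596, 0.992 and 0.337, edgeR).

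Set directly against 135 min, the libraries at 405 min of tunicamycin were lower for 5 members and higher for 1, where 22.4% of the genes tested were called lower, 21.4% higher and 43.7% either way. Idi1 fell by 82.4% (log2 fold change -2.51 ± 0.52 SE, adjusted p = 0.0066, edgeR), Insig1 fell by 72.6% (-1.87 ± 0.156 SE, adjusted p = 0.000138, edgeR) and Lss fell by 66.9% (-1.59 ± 0.124 SE, adjusted p = 0.000108, edgeR). Sqle fell less (-0.83 ± 0.124 SE, adjusted p = 0.00165, edgeR), and so did Cyp51 (-0.70 ± 0.183 SE, adjusted p = 0.0176, edgeR). Fdps rose, with a log2 fold change of 0.39 ± 0.126 (SE, adjusted p = 0.0367, edgeR), from 281 to 325 CPM to 397 to 419 CPM. Fdft1 had a log2 fold change of -0.26 ± 0.401 (SE, adjusted p = 0.619, edgeR), and without Tu 135 min replicate 1 it was -0.65 and called (adjusted p = 0.000382, edgeR). Leaving out 1 library lost the call of Fdps in 5 of 6 fits (all but the fit without Tu 135 min replicate 1) and that of Cyp51 in 3 (without Tu 405 min replicate 2 or 3, or Tu 135 min replicate 2), and changed no call of the other 4. Between 135 and 45 min of tunicamycin no member was called, where 0.291% of the genes tested were (DESeq2 called 617 genes and also no member, and 0 members but 15.8% of the genes tested had an unadjusted p under 0.05 by edgeR).

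**Figure D4:**
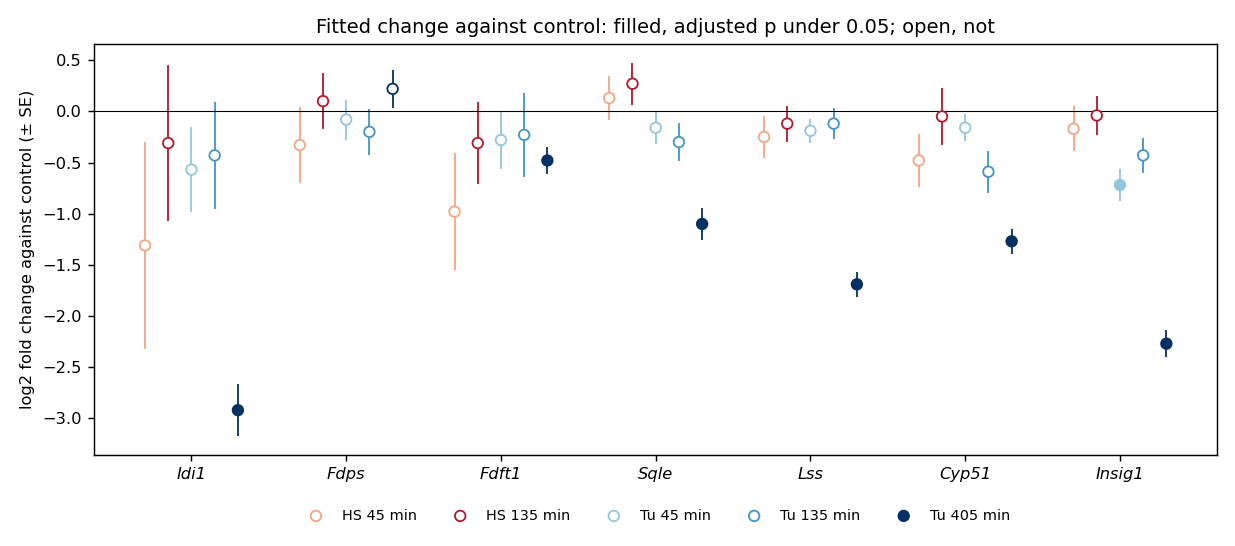
Log2 fold change of each member against control for HS and tunicamycin at each time (edgeR, n = 3 against 3, bars are SE), filled where the adjusted p was under 0.05 and open where it was not. The dark blue points at 405 min of tunicamycin run from -2.92 (Idi1) to 0.22 (Fdps), and Insig1 at 45 min of tunicamycin (-0.72) is the only other filled point. The longest bars are those of Idi1 at both HS times (1.01 and 0.764) and Fdft1 at 45 min of HS (0.575), then Idi1 at 135 min of tunicamycin (0.523).

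HS gave no call for any member at either time. At 45 min, 0 of 7 members and 0% of the 12731 genes tested were called by edgeR, with 0 members and 19.5% of the genes at an unadjusted p under 0.05. DESeq2 called 451 genes and no member. At 135 min, 0 of 7 members were called, where 7.39% of the genes tested were, and again no member had an unadjusted p under 0.05, where 29.7% of the genes did. DESeq2 called 2159 genes at 135 min and no member.

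The libraries of HS disagreed among themselves for part of the route. At 45 min Idi1 had 8.36, 10.4 and 141 CPM, and Fdft1 57.6, 55.8 and 250 CPM, so replicate 3 was at the level of the controls and the others far below them. The highest library had 16.9 times the Idi1 of the lowest, the widest range of any member within a group. The log2 fold changes were -1.31 ± 1.01 (SE, adjusted p = 0.414, edgeR) and -0.98 ± 0.575 (SE, adjusted p = 0.319, edgeR). Cyp51 had 183, 153 and 277 CPM, all under the controls (-0.48 ± 0.259 SE, adjusted p = 0.293, edgeR). Without replicate 3 all 3 were called lower, Idi1 at -3.83 (adjusted p = 0.000765), Fdft1 at -2.07 (adjusted p = 0.000757) and Cyp51 at -0.77 (adjusted p = 0.0104, edgeR throughout), where 45.4% of all genes tested (5786) were called in either direction.

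The other members varied less at 45 min of HS. Lss had 171, 134 and 186 CPM, also under every control (log2 fold change -0.25 ± 0.204 SE, adjusted p = 0.435, edgeR), and 12.8% of the genes tested were apart in that direction. Fdps had 305, 156 and 397 CPM (-0.33 ± 0.371 SE, adjusted p = 0.574, edgeR), Insig1 134, 185 and 208 CPM (-0.17 ± 0.222 SE, adjusted p = 0.615, edgeR). Sqle, at 223, 236 and 240 CPM, was the only member with a value above 0 (0.13 ± 0.211 SE, adjusted p = 0.686, edgeR).

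At 135 min of HS it was replicate 2 that lay low. Idi1 had 189, 12.3 and 120 CPM, Fdft1 293, 86.1 and 198 CPM, and Cyp51 351, 168 and 306 CPM. All overlapped with the controls, and the log2 fold changes were -0.31 ± 0.764, -0.31 ± 0.397 and -0.05 ± 0.283 (SE, adjusted p = 0.811, 0.624 and 0.912, edgeR). Without replicate 2 they were 0.25, 0.07 and 0.23. Insig1 had 212, 160 and 205 CPM (-0.04 ± 0.193 SE, adjusted p = 0.896, edgeR), and Fdps 485, 327 and 343 CPM (0.10 ± 0.27 SE, adjusted p = 0.819, edgeR).

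Sqle at 135 min of HS had its least variable group, at 256, 266 and 248 CPM, above every control (log2 fold change 0.27 ± 0.206 SE, adjusted p = 0.392, edgeR), where 18.1% of the genes tested were apart in that direction. Lss, at 189, 184 and 165 CPM, lay just under the controls (-0.12 ± 0.176 SE, adjusted p = 0.665, edgeR), as did 19% of the genes tested. The members' median was -0.05 beside -0.02 over all genes.

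Of the 51 other pathway genes tested none was called at 45 min of HS and 4 were at 135 min, a share of 7.84% that is near the 7.39% over all genes. The latter were Pdss1, which makes the side chain of ubiquinone, at 2.19 to 5.16 CPM against 11.6 to 12.2 CPM in control (log2 fold change -1.62 ± 0.341 SE, adjusted p = 0.0328, edgeR), Tmem97 at 42.3 to 83.0 CPM (-1.26 ± 0.273 SE, adjusted p = 0.0359, edgeR) and Abca1 at 2.35 to 3.64 CPM (-1.46 ± 0.298 SE, adjusted p = 0.03, edgeR). These 3 were lower, and the gene model of Pdss1 overlaps that of Abi1 by position. The other was the oxysterol receptor gene Nr1h3, higher at 0.269 to 0.465 CPM but whose control values, 0.0179 to 0.126 CPM, reached the floor of 3 reads (adjusted p = 0.0457, edgeR). Without 1 library the count ran from 0 (HS 135 min replicate 3, control replicate 2 or control replicate 3) to 12 (HS 135 min replicate 1), with 2 without control replicate 1. Without HS 45 min replicate 3 it was 27 at 45 min, where 45.4% of all genes tested were called. Srebf2 had 1220, 1510 and 621 CPM at 45 min of HS (0.98 ± 0.371 SE, adjusted p = 0.241, edgeR) and 706, 1630 and 1250 CPM at 135 min (1.08 ± 0.35 SE, adjusted p = 0.0911, edgeR). Insig2 lay under every control at both times, at 2.58 to 14.0 and 2.59 to 9.62 CPM (-1.5 ± 0.638 and -1.52 ± 0.441 SE, adjusted p = 0.255 and 0.0703, edgeR). Of the genes tested, 12.8% and 19% were apart in that direction. Insig2 also lay under every control at 45 and 135 min of tunicamycin, at 5.38 to 14.9 and 2.69 to 12.8 CPM, as did 16% and 13.6% of the genes tested. Srebf1 (0.71 and 0.55) and Scap (0.56 and 0.21) did not pass the test at 45 or 135 min of HS (adjusted p = 0.272, 0.239, 0.295 and 0.63, edgeR).

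The split libraries stood apart on the largest axis of spread within groups, which was computed over all genes tested, and the part of that axis in the results above was not tested. Scores were first taken without subtracting each group's mean, so they also hold differences between groups. On this scale HS 45 min replicates 1 and 2 scored 75.5 and 94.3, HS 135 min replicate 2 94.2 and Tu 135 min replicate 1 47.4. These 4 libraries held the 4 lowest levels of Fdft1 among all 18. The controls scored -43.6 to -11.7, the libraries at 405 min of tunicamycin -23.2 to -7.19, and HS 45 min replicate 3 -31.5. With each group's mean subtracted, HS 45 min replicates 1 and 2 scored 29.4 and 48.2, and replicate 3 -77.6, the furthest from 0. HS 135 min replicate 2 then scored 69.6 and Tu 135 min replicate 1 50.1. Across the 18 libraries, after subtracting each group's mean, Idi1 correlated with the axis at -0.983, Fdft1 at -0.971 and Cyp51 at -0.942. These values are descriptions, since the axis was computed over genes that include the members. Insig1 (-0.708) and Fdps (-0.697) followed it less, and Sqle (-0.306) and Lss (-0.276) least.

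**Figure D5:**
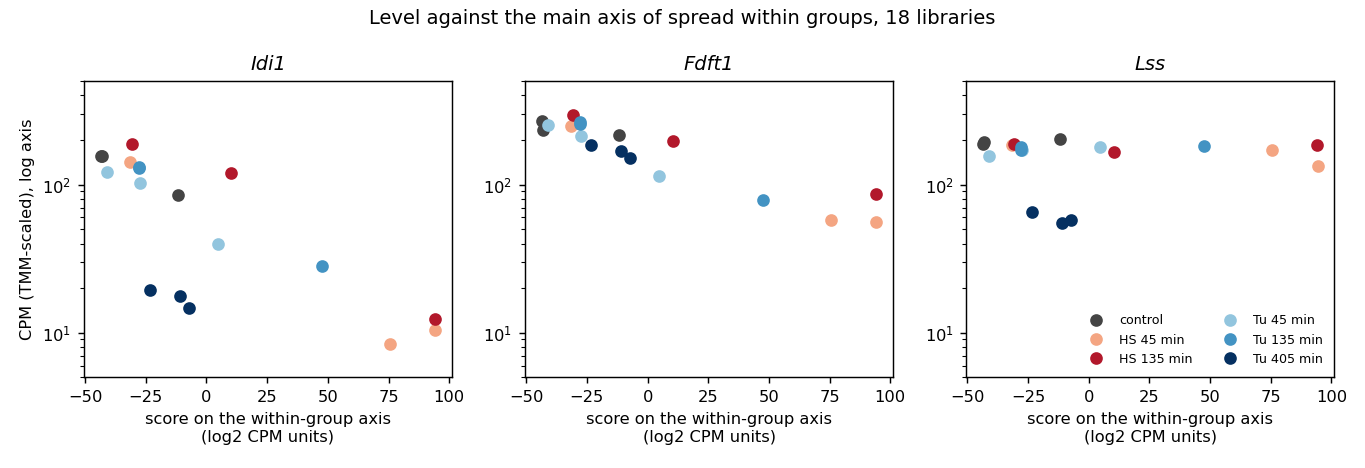
Level (CPM, TMM-scaled, log axis) of Idi1, Fdft1 and Lss in each of the 18 libraries against the library's score on the largest axis of spread within groups (log2 CPM units, over all genes tested), coloured by group. Scores are shown without subtracting group means, so they also hold differences between groups. Idi1 and Fdft1 run downward along the axis, to 8.36 and 55.8 CPM at the right, and the 3 dark blue points at 405 min of tunicamycin, at scores of -23.2 to -7.19, have 14.6 to 19.3 CPM of Idi1 and 55.3 to 65.5 CPM of Lss.

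HS and tunicamycin were also set against each other at matched times. At 45 min 0 of 7 members were called, where 0.204% of the genes tested were (26 genes by edgeR and 1127 by DESeq2, which called no member), with 1 member and 24% of the genes at an unadjusted p under 0.05. Sqle, at 223 to 240 CPM in HS and 180 to 201 CPM in tunicamycin, was the only member with groups apart at 45 min (log2 fold change 0.31 ± 0.142 SE, adjusted p = 0.231, edgeR), where 13.1% of the genes tested were apart in that direction. Without HS 45 min replicate 3, Idi1 (-3.25), Fdft1 (-1.78) and Cyp51 (-0.60) were called lower in HS, where 55.7% of all genes tested (7087) were called in either direction.

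At 135 min 0 of 7 members were called between HS and tunicamycin, where 2.12% of the genes tested were, with 1 member and 20% of the genes at an unadjusted p under 0.05. Sqle had 248 to 266 CPM in HS and 159 to 184 CPM in tunicamycin (log2 fold change 0.56 ± 0.161 SE, adjusted p = 0.116, edgeR), and DESeq2 called it among 1256 genes. Fdps, at 327 to 485 and 281 to 325 CPM, was also apart in this direction, as were 13.4% of the genes tested (0.29 ± 0.215 SE, adjusted p = 0.508, edgeR). Between the 2 times of HS 0 of 7 members and 0% of the genes tested were called (403 genes and no member by DESeq2), with 0 members and 11.6% of the genes at an unadjusted p under 0.05.

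Across the 18 libraries the members did not all follow the same course. The correlation of each with the mean of the other members, on the log2 CPM scale, was highest for Cyp51 (0.923) and Idi1 (0.843), then Insig1 (0.669), Lss (0.664), Sqle (0.578) and Fdft1 (0.568), and lowest for Fdps (0.168). Of the 21 pairs, 17 correlated positively, from -0.285 to 0.919 with a median of 0.54. Among 10912 genes with a mean of at least 50 reads, those whose levels ran most like the members' mean were Rgs4 (0.978), 1110037F02Rik (0.973), Polq (0.96), Smc2 (0.959) and Dse (0.958), and those most unlike it were Ring1 (-0.961), Smarcb1 (-0.959) and Dnalc4 (-0.957). All these are Pearson correlations over 18 libraries that share groups, depth and the axis of spread, and they describe these libraries.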

How the data were processed

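mRNA-seq was analysed in 18 libraries, 3 per group, with groups and replicate numbers taken from the labels. The authors sequenced poly(A) RNA, prepared with a modified Illumina protocol or a NuGEN kit, mapped it to mm9 with RefSeq genes on DNAnexus and deposited estimated counts and RPKM for each library (kits per library, and the versions of aligner and counter, are not given in the sources used here). RPKM of the authors served only for levels between genes, and their rescaled RPKM were not used.

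Estimated counts were rounded to whole numbers, and genes with at least 1 read in all 18 libraries (12731) were tested. Each of 10 comparisons was a fit of its 6 libraries with edgeR 4.0.16 (TMM, quasi-likelihood, R 4.3.3), with Benjamini-Hochberg adjustment over all genes tested and calls at an adjusted p under 0.05. The SE of a log2 fold change was back-calculated, as its absolute value divided by the square root of the quasi-likelihood F statistic. For part of the comparisons the fit was run on simulated counts. These were drawn for each gene independently, without the shared axis of spread, so they do not test its effect. Alternatives used DESeq2 1.42.0, sva 3.50.0 and other scalings and filters. The floor of 3 reads covers counting error only. The members and lists were chosen with earlier results of these data known. Named genes were all members, Srebf1, Srebf2, Scap and Insig2, up to 3 called genes of each other list and comparison by size of change, and the genes most and least like the members. Same-numbered libraries deviated together in all 3 pairs (correlations 0.295, 0.251 and 0.207) only for Tu 135 min against control. The labels do not say that same-numbered libraries are paired, and 3 correlations cannot settle it.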

Additional observations from a re-analysis of the deposited data

Results flagged for a closer look

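For 6 members the effect at 405 min of tunicamycin differed from that at 135 min when the times were compared directly (edgeR, 3 libraries against 3). The log2 fold change between the times was -2.51 for Idi1, -1.87 for Insig1, -1.59 for Lss, -0.83 for Sqle, -0.70 for Cyp51 and 0.39 for Fdps. Of all genes tested, 22.4% were called lower and 21.4% higher between these times. The call of Fdps held in 1 of the 6 fits that left out 1 library, and was lost in 5 of 9 other settings. For Idi1 the nearest values were 19.3 CPM at 405 min and 28.4 CPM in replicate 1 at 135 min.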

How the results depend on the processing

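The falls of Idi1, Insig1, Lss, Cyp51 and Sqle at 405 min of tunicamycin kept direction and call in the 6 fits without 1 library and in 9 other settings. The fall of Fdft1 kept its direction there, but its call held in 3 of the 6 fits and was lost in 4 of the 9 settings. The 47 listed genes called at 405 min were 6 members, 37 other pathway genes and the stress genes Hspa5, Ddit3, Hsph1 and Hspa1b. Of their 705 alternative values, 614 kept their call, 91 lost it and 0 turned. Leaving out 1 library gave 5 to 6 members called at 405 min, 4 to 7 against 135 min, 0 to 1 at 45 min, and 0 to 3 for HS at 45 min against control or tunicamycin. For other pathway genes it gave 25 to 41 at 405 min, 0 to 11 for Tu 45 min, 0 to 27 for HS 45 min and 0 to 12 for HS 135 min. Where a call changed, the cause was not tested.

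With a surrogate variable in a fit shared by all 6 groups, members called were 2 (HS 45 min), 1 (HS 135 min), 4 (Tu 45 min), 2 (Tu 135 min), 1 (Tu 135 against 45 min), 1 (HS against Tu at 45 min) and 3 (at 135 min), and other pathway genes 19, 24, 18 and 10 in the first 4 of these. Of all genes tested, the same fit called 26.8%, 47.2%, 28.7%, 17.4%, 7.74%, 12.5% and 37.5% in these 7 comparisons, in the same order. It called 5 members for Tu 405 min against control (52.8% of all genes) and 5 for Tu 405 against 135 min (56.0%). For HS 135 against 45 min it called 0 members (21.9%). The shared fit alone gave 3 members for Tu 405 against 135 min and 1 for HS against Tu at 135 min, and 3, 14 and 3 other pathway genes for HS 45, HS 135 and Tu 135 min. DESeq2 gave 1 member for HS against Tu at 135 min, and 1, 8, 10 and 6 other pathway genes for HS 45, HS 135, Tu 45 and Tu 135 min. Library totals in place of TMM left 0 members at 45 min of tunicamycin. With a log2 fold change of at least 1 required, 0 members and 0 other pathway genes were left at 45 min, 3 members for Tu 405 against 135 min and 20 other pathway genes at 405 min.

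With the replicate number as a block, members called went from 6 to 5 at 405 min of tunicamycin (the log2 fold change of Fdft1, Tu 405 min against control, had an adjusted p of 0.0504 in edgeR), from 1 to 0 at 45 min and from 6 to 4 for Tu 405 against 135 min, and other pathway genes went to 0 for HS 135 min and Tu 45 min. The labels do not say that same-numbered libraries are paired in any comparison.

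Over all genes, calls by the reported fit, DESeq2, the shared fit and that with the surrogate variable were 0, 451, 1345 and 3407 for HS 45 min, 941, 2159, 3243 and 6005 for HS 135 min, and 17, 665, 411 and 2219 for Tu 135 min. For Tu 45 min they were 786, 1843, 632 and 3657.

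In 28 results the sign turned under some setting, and none of these was called in either fit. Without TMM, Sqle became -0.03 (HS 45 min), Fdps -0.05 (HS 135 min) and 0.02 (Tu 45 min), Srebf2 0.06 (Tu 45 min), and Fdft1 and Lss -0.04 (Tu 135 against 45 min). With the surrogate variable, Srebf2 became 0.14 (Tu 45 min), Srebf1 -0.09 and Scap -0.12 (Tu 135 min), Fdps 0.09 (Tu 135 against 45 min), Fdft1 0.01, Fdps 0.02, Idi1 0.09 and Cyp51 0.06 (HS against Tu, 45 min), and Idi1 -0.36 and Lss 0.02 (135 min). The shared fit gave Scap -0.01 (Tu 135 min) and Lss 0.02 (HS against Tu, 135 min), and the replicate block Fdft1 -0.04 (Tu 135 against 45 min) and Idi1 -0.25 (HS against Tu, 135 min).

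Without 1 library the ranges that crossed 0 were, for HS 45 min, Sqle -0.01 to 0.21. For HS 135 min they were Fdps -0.10 to 0.24, Fdft1 -0.75 to 0.07, Idi1 -1.0 to 0.25, Cyp51 -0.27 to 0.23 and Insig1 -0.12 to 0.10. For Tu 45 min they were Srebf2 -0.17 to 0.20, Srebf1 -0.02 to 0.26, Scap -0.29 to 0.10 and Fdps -0.28 to 0.04. For Tu 135 min they were Fdft1 -0.49 to 0.16, Idi1 -0.72 to 0.01, Srebf1 -0.18 to 0.29 and Scap -0.15 to 0.25. Between times they were Insig1 -0.07 to 0.23 and Lss -0.04 to 0.18 for HS, and Fdft1 -0.23 to 0.45 and Idi1 -0.21 to 0.59 for Tu 135 against 45 min. Between HS and Tu they were Fdps -0.54 to 0.06 and Lss -0.15 to 0.08 at 45 min, and Idi1 -0.60 to 0.69, Fdft1 -0.54 to 0.31 and Lss -0.05 to 0.03 at 135 min.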
